A study of Mus musculus with 8 samples.

Results

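The polo-like kinases are a small family of serine/threonine kinases, and transcripts of Plk1, Plk2, Plk3 and Plk4 are described here in 2 sorted cell fractions of mouse bone marrow. The 4 genes were picked by symbol out of 46113 genes in the files, 21991 of them with annotated exons, and reads were summed for each NCBI gene ID. They were picked with the difference between the fractions already known, so their values in that comparison are a description and carry no p-value. The CD34-negative fraction is called HSC (hematopoietic stem cells) in the labels and the CD34-positive fraction HPC (hematopoietic progenitor cells), though the source name given for both is stem cells. Both came from C57BL/6 mice of 8 to 10 weeks and were sorted as CD150+, Sca1+, c-Kit+ and lineage-negative cells. Each fraction has 4 RNA-seq libraries, made from cDNA amplified by 18 cycles of PCR. The protocol names 5000 sorted cells but speaks of HSC only, and no label ties a library to an animal of its own. The p-values below therefore rest on a spread between libraries that could be technical.

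A polo-like kinase has a kinase domain at its N-terminal end and polo-box repeats at its C-terminal end, which bind it to its place in the cell. Plk1 is needed for entry into mitosis, for the growth of centrosomes, for the spindle and for the splitting of the daughter cells. Plk4 starts the building of new centrioles. Plk2 and Plk3 are known as genes that growth factors, stress and DNA damage switch on, and Plk2 is a target of p53. Adult stem cells of the marrow are mostly out of the cell cycle, and many of their progeny divide.

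HSC libraries held 16291733 to 19070313 exon reads and HPC libraries 18223082 to 20564901. Of the 12751 genes that could be tested, 2493 had higher and 2240 lower levels in HSC (edgeR quasi-likelihood test, Benjamini-Hochberg adjusted p under 0.05), which is 37.1% of those tested, with a median log2 change of 0.00. With upper quartile scaling in place of TMM, 2929 were higher and 1820 lower, and the median was 0.08. Of 8 markers of long-term stem cells 8 were higher in HSC, and 3 of 3 progenitor markers (Cd34, Flt3 and Cd48) were lower. Levels are given as CPM, exon read counts scaled to a common library size by TMM. Cd34, which encodes the antigen that parts the fractions and so is no independent marker of them, was 10.6-fold lower in HSC. Slamf1, which encodes CD150, was 12.0-fold higher in HSC (37.6 CPM, against 3.14 CPM in HPC), although both fractions were gated as CD150+. Markers of other cells moved too. Red cell markers were higher in HSC for 3 of 6 (summed 181 to 453 CPM in HSC libraries, 40.8 to 159 CPM in HPC libraries), and megakaryocyte markers for 4 of 6, with 1 lower (250.5 to 293 CPM in HSC, 156 to 205 CPM in HPC). T and NK cell markers were higher for 4 of 6 (39.6 to 56.5 CPM in HSC, 15.4 to 22.5 CPM in HPC), and B cell markers for 2 of 4 (57.3 to 76.2 CPM in HSC, 52.3 to 61.9 CPM in HPC). Mast cell and basophil markers were lower for 5 of 5 (5.49 to 38.0 CPM in HSC, 78.6 to 198 CPM in HPC). Of 5 tested neutrophil and monocyte markers 1 was lower (176 to 257 CPM in HSC, 195 to 365 CPM in HPC), and of 4 tested stromal and endothelial markers 2 were higher and 1 lower (54.6 to 72.2 CPM in HSC, 113 to 132 CPM in HPC). Most of that last sum was Pecam1, the lower one (46.8 in HSC, 119 CPM in HPC). Kdr (5.15 in HSC, 0.699 CPM in HPC) and Cxcl12 (10.0 in HSC, 2.53 CPM in HPC) were the higher ones. These genes were named after their values were seen, and the sums also hold untested markers. No marker was without reads in either fraction, and the part of such cells in the kinase values was not tested. In bulk samples fewer cells of a type and less RNA per cell cannot be told apart.

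The upstream sequences of the 4 genes are shown because the kinases fell into different patterns between the fractions. Each line gives 250 bases before the annotated start from RefSeq (GRCm38.p6, the assembly behind mm10), 5′ to 3′ on the gene's strand, with matches to the searched motifs in capitals. Plk1 (NCBI gene 18817) spans chromosome 7, 122159435 to 122169884, on the plus strand, and Plk2 (gene 20620) chromosome 13, 110395044 to 110400844, on the plus strand. Plk3 (gene 12795) spans chromosome 4, 117128655 to 117133963, on the minus strand, and Plk4 (gene 20873) chromosome 3, 40799951 to 40816883, on the plus strand. The windows shown are chr7:122159185-122159434 for Plk1, chr13:110394794-110395043 for Plk2, chr4:117133964-117134213 for Plk3 and chr3:40799701-40799950 for Plk4.
Plk1: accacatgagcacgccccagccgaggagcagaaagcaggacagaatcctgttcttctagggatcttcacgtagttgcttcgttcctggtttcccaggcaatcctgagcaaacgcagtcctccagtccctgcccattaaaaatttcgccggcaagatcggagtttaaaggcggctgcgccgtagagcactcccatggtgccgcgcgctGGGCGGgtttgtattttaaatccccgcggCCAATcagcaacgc
Plk2: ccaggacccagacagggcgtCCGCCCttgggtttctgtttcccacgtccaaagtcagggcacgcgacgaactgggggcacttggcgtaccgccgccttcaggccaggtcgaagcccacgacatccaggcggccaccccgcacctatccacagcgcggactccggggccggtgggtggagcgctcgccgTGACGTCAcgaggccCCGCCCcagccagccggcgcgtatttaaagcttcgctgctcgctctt
Plk3: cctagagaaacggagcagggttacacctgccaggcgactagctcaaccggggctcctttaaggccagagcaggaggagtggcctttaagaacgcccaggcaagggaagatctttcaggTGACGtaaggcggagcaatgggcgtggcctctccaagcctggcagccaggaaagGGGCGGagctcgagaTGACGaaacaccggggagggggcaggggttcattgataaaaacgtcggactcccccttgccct
Plk4: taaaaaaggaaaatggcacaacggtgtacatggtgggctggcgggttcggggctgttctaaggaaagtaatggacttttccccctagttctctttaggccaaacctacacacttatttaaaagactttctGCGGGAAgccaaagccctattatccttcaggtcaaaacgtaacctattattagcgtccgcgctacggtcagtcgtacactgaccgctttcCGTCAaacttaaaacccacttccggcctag

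Motifs were searched on both strands over 300 bases, from 250 before the start to 50 after it, in 32851 RefSeq promoters, and they were chosen with these sequences in view. In Plk1 a CHR (cell cycle genes homology region, TTTGAA), an element of many genes of late cell cycle, lay 31 to 36 bases past the start and is shown by this short stretch at chr7:122159457-122159478.
Plk1 past the start: gcgccgcgTTTGAAttcgggga
That motif was in 17.9% of all promoters and in none of the other 3 kinases. Plk1 also held a CCAAT box (CCAAT, in 37.4% of promoters), the binding motif of NF-Y, at 14 to 10 bases before the start. The palindromic CRE (TGACGTCA), a motif bound by CREB and ATF factors, was in the promoter of Plk2 at 62 to 55 bases before the start and in 1.79% of all promoters. Plk3 held a shorter form of it (TGACG, in 20.8% of promoters, counted also inside the palindrome) at 2 places, Plk4 at 1 and Plk2 at 3, of which 2 overlap in the palindrome and the other lies past the start. An E2F motif (TTCCCGC, in 4.6%) was found in Plk4, on the opposite strand, and another form (TTGGCGC, in 2.45%) in none of the 4. GC boxes (GGGCGG, in 35.7%) were in Plk1, Plk2 and Plk3. AP-1 (TGACTCA, in 5.2%), the p53 single-repeat motif (in 8.36%) and the CArG box of serum response factor (in 1.63%) were in none of these 4 windows, which says only that those letters are not in them.

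Plk2 was the kinase with the widest gap between the fractions. Its exon reads, as TMM-scaled CPM, were 68.3, 71.0, 69.0 and 65.1 in HSC replicates 1 to 4, against 1.37, 1.79, 0.780 and 1.99 in HPC replicates 1 to 4. The HSC libraries had a coefficient of variation of 3.59%, while the HPC libraries, resting on 14 to 36 reads each, varied by 36.0%. HSC averaged 68.3 ± 2.46 CPM and HPC 1.48 ± 0.534 CPM (± SD over 4 libraries, as in all later means), a 46.1-fold ratio and a log2 change of 5.52 ± 0.21 (SE, HSC over HPC). That change ranked 86 from the top among the 12751 genes.

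Plk1 lay below its HPC level in HSC. It stood at 59.3, 49.2, 56.7 and 58.5 CPM in HSC, against 102, 91.3, 91.0 and 86.0 CPM in HPC. The highest HSC library was under the lowest HPC library. HSC averaged 55.9 ± 4.58 CPM and HPC 92.7 ± 6.98 CPM, a log2 change of −0.73 ± 0.10. Of its reads 99.98% were uniquely placed, and the pseudogene Plk-ps1 on chromosome 5, annotated with no exons, had 0 to 7 gene reads a library.

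Plk4 was also below its HPC level in HSC, with more spread than Plk1. It had 44.8, 60.6, 52.8 and 46.7 CPM in HSC, against 99.2, 84.6, 105 and 71.0 CPM in HPC. HPC replicate 4 was the lowest of its fraction and still above every HSC library. HSC averaged 51.2 ± 7.13 CPM and HPC 89.9 ± 15.3 CPM (log2 change −0.81 ± 0.14). Plk4 lies on chromosome 3 and again on an alternate locus, and only 0.104% of its reads were uniquely placed. In HSC replicate 1, for example, 379 reads were on the main locus and 372 on the alternate one. The split was less even in other libraries, such as 508 and 377 in HSC replicate 4 and 907 and 795 in HPC replicate 2. With the main locus alone its log2 change was −0.77. How reads placed on both loci were counted is not given in the sources used here. If such reads were counted at each locus, the CPM of Plk4 would be too high.

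Plk3 was scarce in both fractions. It reached 5.25, 4.29, 6.34 and 3.48 CPM in HSC, against 4.86, 3.18, 1.84 and 2.43 CPM in HPC. The ranges overlapped, since HPC replicate 1 was above HSC replicates 2 and 4. HSC averaged 4.84 ± 1.23 CPM and HPC 3.08 ± 1.31 CPM, with a log2 change of 0.65 ± 0.36. It was 0.46 without HPC replicate 3 and 0.95 without HPC replicate 1. The last 84 bases of Plk3 overlap Tctex1d4, a gene on the other strand with 2 to 5 exon reads in HSC and 4 to 8 in HPC libraries. Whether reads were counted by strand is not given in the sources used here.

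**Figure D1:**
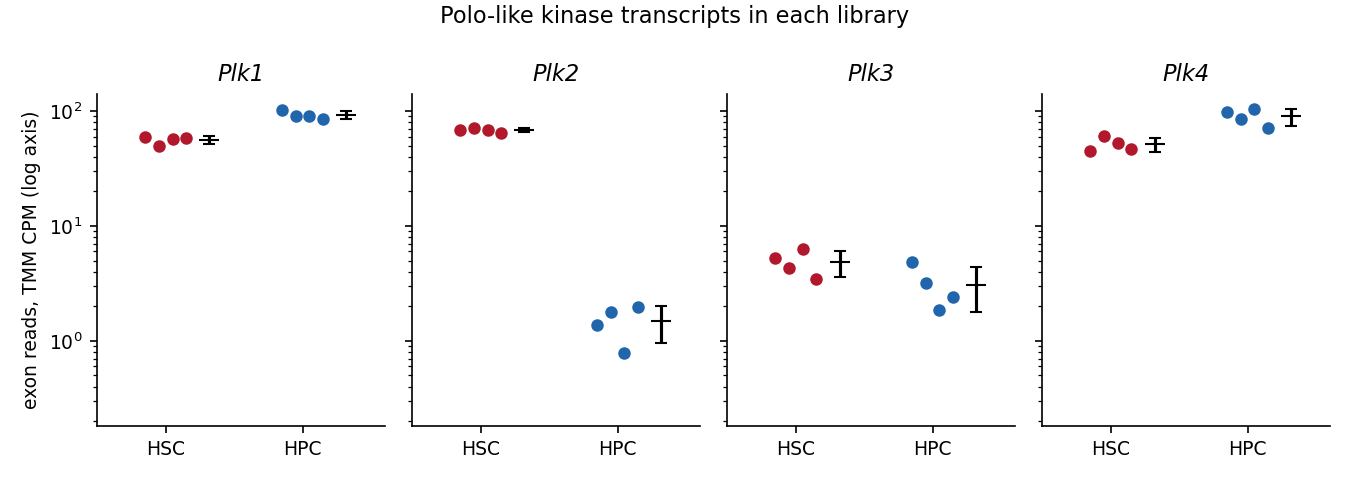
Exon reads of Plk1, Plk2, Plk3 and Plk4 as TMM-scaled CPM on a log axis, with 1 point for each of 4 HSC and 4 HPC libraries and the mean ± SD beside them. Plk2 is near 68 CPM in HSC and near 1.5 CPM in HPC, Plk1 and Plk4 are lower in HSC with no overlap, and the Plk3 points overlap.

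In all, 3 of the 4 kinases had fractions that did not overlap, 1 with HSC above and 2 with HSC below. Among all genes tested 36.7% were apart in this way, 19.5% with HSC above and 17.2% with HSC below, and since the members were chosen on this contrast nothing is read from the count. Plk5, the family member outside the choice, which is known for expression in brain, had 4, 0, 8 and 8 exon reads in HSC and 1, 0, 0 and 0 in HPC. These were too few to be tested. In the libraries with 0 reads a count of 0 allows up to 3 reads, which is 0.157 CPM in HSC replicate 2 and 0.149 to 0.167 CPM in HPC replicates 2 to 4, and such limits cover counting error only.

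To set the kinases beside each other, CPM were divided by exon length in kilobases. In HSC, Plk1 (25.3 ± 2.07 CPM per kb) and Plk2 (24.4 ± 0.876) came first and did not differ beyond their spread, followed by Plk4 (12.4 ± 1.73) and Plk3 (2.03 ± 0.519). In HPC the order was Plk1 (41.9 ± 3.15), Plk4 (21.8 ± 3.70), Plk3 (1.29 ± 0.551) and Plk2 (0.529 ± 0.191), with no overlap between neighbours. Plk2 thus stood above 73.7% of the tested genes in HSC and above 11.6% in HPC, while Plk1 stood above 74.3% in HSC and 83.1% in HPC.

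The summed level of the 4 kinases per kilobase was 64.1 ± 1.35 in HSC and 65.5 ± 6.37 CPM per kb in HPC, and the HSC range lay inside the HPC range. Its make-up was not alike. Plk2 gave 37.2% to 39.5% of the sum in HSC and 0.412% to 1.23% in HPC. Plk1 gave 34.7% to 42.3% in HSC and 60.8% to 67.2% in HPC, and Plk4 16.9% to 22.9% in HSC and 29.8% to 37.7% in HPC. Plk3 stayed within 2.34% to 4.05% in HSC and 1.14% to 2.81% in HPC. The Plk4 level sums the reads of its main and alternate loci over the exon length of the main one. If reads placed on both were counted at each, its level, its share and the sums are too high, and the other shares too low. How such reads were counted is not given.

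**Figure D2:**
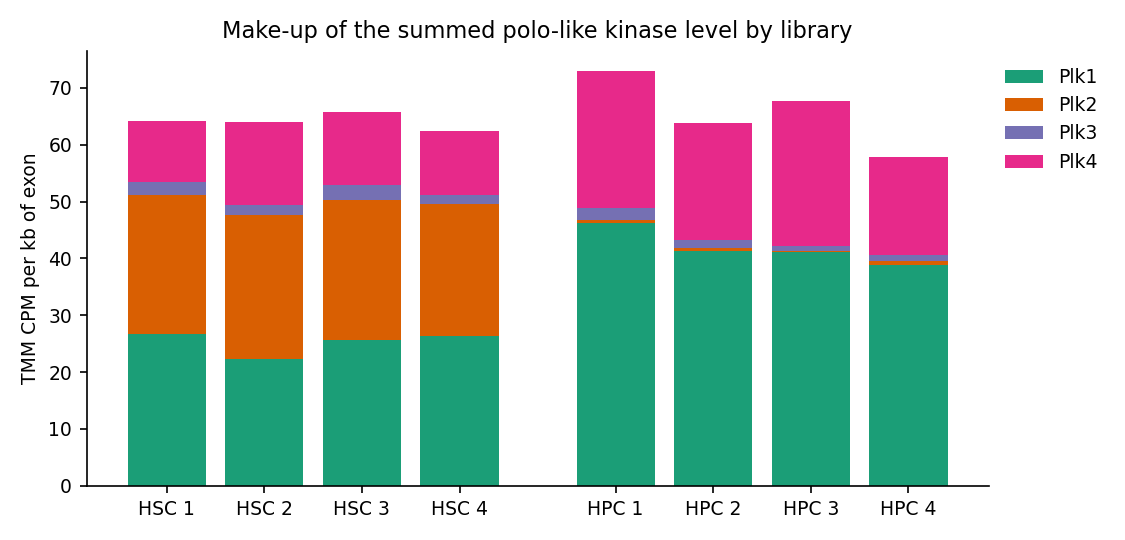
Stacked bars of TMM-scaled CPM per kilobase of exon for the 4 kinases in each HSC and HPC library. Plk4 blocks sum the reads of its main and alternate loci. Bar heights run from 62.4 to 65.7 in HSC and from 57.8 to 72.9 in HPC, and the Plk2 block, about as tall as that of Plk1 in HSC, is barely seen in HPC.

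Reads that cross an exon junction come from spliced RNA, and reads in introns can come from unspliced RNA or from other features there. For Plk2 the kinds of read gave different gaps. Junction reads were 571, 705, 865 and 749 in HSC, against 5, 0, 7 and 9 in HPC, a log2 change of 7.11 ± 0.34. Intron reads were 192, 142, 78 and 120 in HSC, against 34, 25, 10 and 29 in HPC, a log2 change of 2.41 ± 0.41. Both kinds were higher in every HSC library than in any HPC library, and the junction gap was the wider one.

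The Plk2 reads left in HPC were unlike those in HSC in make-up. Per kilobase, exon and intron reads were 409 to 490 and 26.0 to 64.0 in HSC, against 5.0 to 12.8 and 3.33 to 11.3 in HPC. In HPC replicate 1 the intron density, 11.3, was above the exon density, 9.28. Over the 4 libraries introns held 9.43% of exon plus intron reads in HSC and 46.7% in HPC, and junction reads made up 56.6% of exon reads in HSC and 18.8% in HPC. The median over tested genes was 18.6% intron in HSC and 18.7% in HPC, and 40.9% junction in HSC and 41.5% in HPC. Plk2 in HPC had a larger intron share than 81.9% of genes, and in HSC than 28.9%. The HPC share rests on 112 exon and 98 intron reads, and genes of a like low level were not compared on their own.

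**Figure D3:**
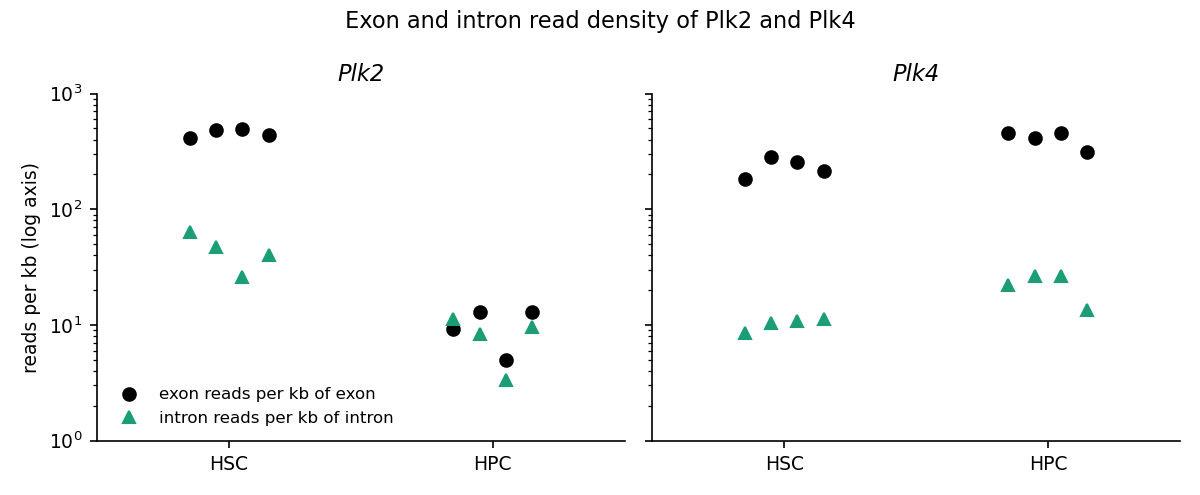
Exon reads per kilobase of exon (circles) and intron reads per kilobase of intron (triangles) for Plk2 and Plk4 on a log axis, with 1 pair for each library. For Plk2 the kinds are far apart in HSC and lie together in HPC, while for Plk4 exon density is well above intron density in both fractions.

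In the other kinases the junction share was close in both fractions. Junction reads were 63.2% of the exon reads of Plk1 in HSC and 63.9% in HPC. They were 51.0% for Plk4 in HSC and 52.5% in HPC, and 70.7% for Plk3 in HSC and 71.2% in HPC. The intron share of exon plus intron reads was 1.42% in HSC and 1.74% in HPC for Plk1, and 12.0% and 14.4% for Plk4. For Plk3 it was 14.8% in HSC and 29.8% in HPC, higher in HPC as for Plk2, on 63 and 99 intron reads. For Plk4, intron reads were 109, 134, 139 and 144 in HSC, against 283, 342, 338 and 172 in HPC, a log2 change of −1.09 ± 0.20 beside −0.81 for exons. Plk1 had few intron reads, 5 to 25 in HSC and 25 to 38 in HPC libraries (log2 change −1.08 ± 0.57). Those of Plk3 were 9 to 27 in HSC and 3 to 41 in HPC, with a log2 change of −0.61 ± 0.66, less than its standard error and of opposite sign to the 0.65 of its exon reads.

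**Figure D4:**
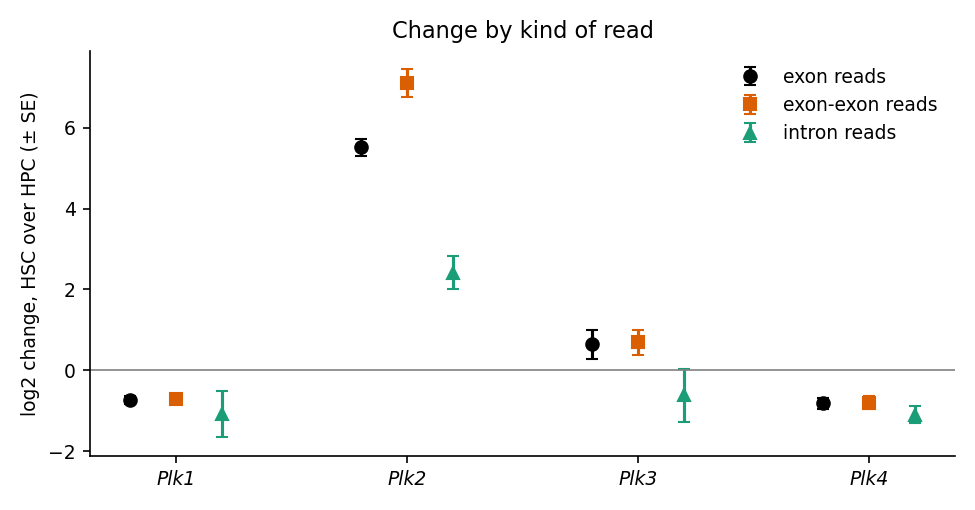
Log2 change, HSC over HPC, with its standard error, from separate fits of exon, exon-exon and intron reads. Plk2 is at 7.11 for exon-exon and 2.41 for intron reads, Plk1 and Plk4 are below 0 with all 3 kinds, and the intron value of Plk3 is below 0.

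Genes that work with Plk1 at entry into mitosis were mostly lower in HSC. Of 20 listed, 17 were lower and 3 had no call, with a median log2 change of −0.999 (beside 17.6% of all genes lower and a median of 0.00). Aurka, the kinase that switches Plk1 on, had 37.2 ± 3.80 CPM in HSC, against 78.8 ± 9.24 CPM in HPC (log2 −1.08, edgeR adjusted p = 5.7e-06). Bora, the cofactor Aurka needs for it, was 1.33-fold lower, at 38.2 ± 3.36 in HSC and 50.7 ± 5.20 CPM in HPC (edgeR adjusted p = 0.014). Cdk1, the main mitotic kinase, averaged 61.9 ± 6.19 CPM in HSC, against 123 ± 12.6 CPM in HPC. Foxm1, a transcription factor of mitotic genes, had 16.5 ± 2.74 CPM in HSC, against 45.1 ± 6.18 CPM in HPC. The smallest adjusted p in the list belonged to the cyclin gene Ccnb2, to Pkmyt1, a kinase that holds Cdk1 back, and to the spindle protein gene Tpx2, which were 2.44-fold, 2.67-fold and 2.54-fold lower in HSC. Cdc25a, Arpp19 and Ensa had no call. The change of Plk1 itself, −0.73, was smaller in size than those of 14 lower genes among the 20.

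Of 26 genes of the spindle, the kinetochore and cytokinesis, many of them Plk1 substrates or partners, 24 were lower in HSC, with a median of −1.16 (17.6% of all genes were lower). Ect2, which starts the cleavage furrow, averaged 25.8 ± 0.562 CPM in HSC, against 98.7 ± 14.2 CPM in HPC (log2 −1.94, edgeR adjusted p = 1.8e-08). Kif23, a kinesin of the midzone, was 3.15-fold lower, and Cep55, which acts at the last cut between daughter cells, averaged 11.7 ± 2.48 CPM in HSC, against 55.3 ± 6.18 CPM in HPC (log2 −2.24). Pttg1, which encodes securin, the inhibitor of separase, went the other way, at 64.8 ± 6.53 in HSC and 35.7 ± 3.93 CPM in HPC (log2 0.86, edgeR adjusted p = 5.4e-05). Nudc had no call.

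Of 22 genes of centriole duplication, the process that Plk4 starts, 9 were lower in HSC, 1 was higher and 12 had no call, with a median of −0.42, beside 37.1% of all genes called, 17.6% lower and 19.6% higher. Stil, a substrate and activator of Plk4, averaged 10.9 ± 1.37 CPM in HSC, against 33.9 ± 5.43 CPM in HPC (log2 −1.63, edgeR adjusted p = 1.7e-06). Sass6, which forms the cartwheel of the new centriole, averaged 28.3 ± 3.69 CPM in HSC, against 52.4 ± 3.86 CPM in HPC. Cep152, a scaffold that recruits Plk4, had 14.6 ± 1.35 CPM in HSC, against 28.6 ± 4.81 CPM in HPC. Cep63, a partner of Cep152, was higher in HSC, at 64.3 ± 2.97 CPM in HSC, against 49.1 ± 2.57 CPM in HPC (edgeR adjusted p = 0.0068). Btrc and Fbxw11, subunits of the ligase that marks Plk4 for destruction, had no call and were named after their values were seen.

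Of 14 genes of the pericentriolar material, the protein coat of the centrosome that Plk1 enlarges before mitosis, 4 were lower and 2 higher in HSC, with no call for 8 (median −0.23). That is near the 37.1% called over all genes (17.6% lower, 19.6% higher), so the count is no result about these genes as a list. The lower ones were Tubg1, which encodes gamma-tubulin (34.96 ± 2.69 in HSC and 51.7 ± 1.93 CPM in HPC), Cdk5rap2, Tubgcp2 and Pcnt, the last of them named after its value was seen. Ninl, at 8.19 ± 1.70 in HSC and 2.97 ± 0.995 CPM in HPC, and Kiz were higher. Without HSC replicate 2 the lower ones numbered 2, and Tubgcp2 lost its call (edgeR adjusted p = 0.050).

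Plk2 and Plk3 are known to answer to p53 and to DNA damage, and 24 genes were listed for that route. HSC had 2 of them at a higher and 8 at a lower level, with no call for 14 (median −0.05). The share called in either direction is near the 37.1% over all genes and is no result about the list. By direction, 8 of 24 were lower and 2 higher, beside 17.6% lower and 19.6% higher over all genes, and that split was not tested. The list holds checkpoint kinase genes beside p53 and its targets, and Chek1 and Chek2 were among the lower ones. Trp53, which encodes p53, had no call at 396 ± 42.7 in HSC and 440 ± 37.1 CPM in HPC (edgeR adjusted p = 0.26). Cdkn1a, the p53 target that encodes the cell cycle inhibitor p21, was at 6.80, 3.14, 3.07 and 3.11 CPM in HSC, against 26.2, 17.8, 15.5 and 18.2 CPM in HPC (log2 −2.28, edgeR adjusted p = 1.7e-05, with HSC replicate 1 above the other HSC libraries). Btg2 (2.29-fold) and the checkpoint kinase gene Chek1 (2.14-fold) were also lower in HSC. The 2 higher ones were Ccng1, at 115 ± 14.3 in HSC and 84.5 ± 13.1 CPM in HPC, and Fas, a death receptor gene at 6.47 in HSC and 1.36 CPM in HPC, named after its value was seen.

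Plk2 and Plk3 are also known as early genes of growth factor stimulation. Of 25 immediate early genes 23 were tested, with 10 higher in HSC, 1 lower and no call for 12 (median 0.61, beside 19.6% of all genes higher). The summed level of the 25 overlapped between the fractions, at 1440 to 2135 CPM in HSC libraries and 1046 to 1623 CPM in HPC libraries. Maff, a small Maf factor, averaged 14.0 ± 1.45 CPM in HSC, against 1.90 ± 0.403 CPM in HPC (log2 2.88, edgeR adjusted p = 3.1e-07), Klf6 was 1.70-fold and the phosphatase gene Dusp1 1.84-fold higher. Dusp2 was lower, at 84.2 ± 12.8 in HSC and 126 ± 15.6 CPM in HPC. Without HSC replicate 1, HSC replicate 2 or HPC replicate 3 the lower genes numbered 2.

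Of 14 genes for partners and substrates of Plk2 and Plk3, HSC had 3 at a higher and 5 at a lower level, with no call for 6 (median −0.28, mean −0.00), beside 19.6% of all genes higher and 17.6% lower. Cib1, a calcium-binding partner of both kinases, had no call at 38.4 ± 5.94 in HSC and 42.9 ± 6.21 CPM in HPC (edgeR adjusted p = 0.43). Gorasp1, a Golgi stacking protein gene, was among the higher ones, at 39.6 ± 4.86 CPM in HSC, against 29.8 ± 2.35 CPM in HPC (edgeR adjusted p = 0.019). Among the lower ones were Cdc25c, a phosphatase that activates Cdk1, Hif1a, the checkpoint kinase gene Chek2 and Vrk1, the last of them named after its value was seen. Hif1a, which encodes a factor of the response to low oxygen, averaged 58.2 ± 8.97 CPM in HSC, against 88.9 ± 13.1 CPM in HPC (edgeR adjusted p = 0.0025). Chek2 lost its call without HSC replicate 3 or 4 or HPC replicate 2 or 3, and Gorasp1 without HSC replicate 4 or HPC replicate 1. The higher genes numbered 1 without HSC replicate 4 or HPC replicate 1. The lower genes numbered 3 without any 1 HSC replicate and 2 without HPC replicate 2.

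**Figure D5:**
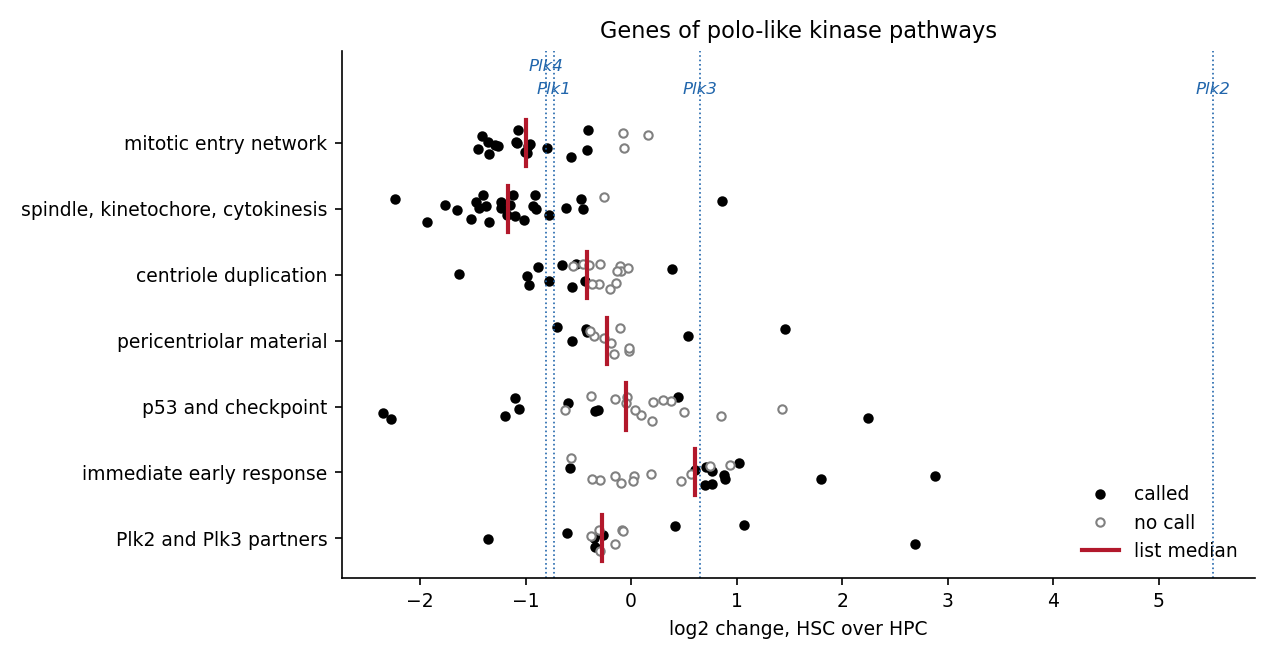
Log2 change, HSC over HPC, of each tested gene in 7 lists around the polo-like kinases, with filled points for genes called by edgeR, open points for the others, a bar at each list median and dotted lines at the 4 kinases. The medians of the mitotic entry and spindle lists, −0.999 and −1.16, lie below the lines of Plk1 and Plk4, and no list gene reaches the line of Plk2.

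The genes most like each kinase were found by the root mean square difference of mean-centred log2 CPM over the 8 libraries, among the 10257 or 10258 genes that averaged 5 CPM or more. For Plk2 the nearest included Tinagl1 (0.32, against a median of 2.79 over all candidates), Clip3 (0.36), Glipr1l1 (0.43) and Slc25a21 (0.45). Tinagl1 averaged 72.8 ± 4.55 CPM in HSC, against 1.84 ± 0.564 CPM in HPC. For Plk1 they were Rrm1 (0.05, against a median of 0.42), Wfs1, Whsc1, Fdxr and Xrcc6, with Rrm1, a subunit of the enzyme that makes deoxynucleotides, at 260 ± 12.1 in HSC and 429 ± 23.8 CPM in HPC. For Plk4 they were St8sia4 (0.09, against a median of 0.48), Zfp407, Zfp704, Pole and Nfatc1, with Pole, a DNA polymerase gene, at 38.7 ± 5.86 in HSC and 65.9 ± 9.69 CPM in HPC. For Plk3 they were the clock gene Per1 (0.19, against a median of 0.60), Camkk1, Csf2rb2, Chpf2 and Plekha8. The 8 libraries form only 2 fractions, so genes with a like gap between HSC and HPC come close in this measure.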

How the data were processed

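Per the file headers, the authors' counts, deposited as whole numbers, cover exon, exon-exon, intron and gene reads in each row, total and uniquely placed, for 1 library a file. The RPKM and TPM that the authors deposited were not used. Genome build mm10 is named in the submitters' processing notes. The aligner, counter and strand setting were not given in the sources used here. Positions are those of the files.

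Rows of 1 NCBI gene ID were summed (1931 of 46113 IDs had several). Total exon reads of genes kept by filterByExpr were scaled by TMM and tested with edgeR 4.0.16 in R 4.3.3 (quasi-likelihood F test, no covariate), HSC over HPC. The standard error is the size of the change over the square root of F. Levels are CPM on TMM-scaled library sizes, as mean ± SD, and folds are ratios of means. The biological coefficient of variation was 18.3%. The replicate numbers do not pair the libraries by any label. No 2 libraries of a fraction looked like 1 deposited again (mean chi-square per gene 11.6 to 38.7).

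The members, lists and tests were chosen with earlier results of these data known. Named list genes are, per list, up to 3 called in each direction with the smallest adjusted p and a mean of at least 5 CPM, and 10 set partners, called or not. Exceptions are marked, and genes without a call are named only where few. Likeness of profiles used log2 CPM with a prior count of 2, leaving out predicted gene models. The fit was tested on simulated counts, where it called 92 of 100 changes of 2-fold and 28 of 100 changes of 1.5-fold. Of 124 genes called there, 4 were false. A gene without a call can therefore still differ between the fractions. Alternatives were other scalings, filters, read kinds, thresholds and tools (limma 3.58.1 voom, DESeq2 1.42.0), a replicate block and leaving out libraries. Some genes that the naming rule selects are not reported here.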

Additional observations from a re-analysis of the deposited data

Results flagged for a closer look

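Of 78 groups of 4 libraries checked for a library far from the others, 4 stood out, and chance flags about 1 in 20. Cdkn1a was at 6.80 CPM in HSC replicate 1 and at 3.07 to 3.14 CPM in the other HSC libraries, and without that library its log2 change was −2.64. Sass6 was at 33.8 CPM in HSC replicate 2 and at 25.9 to 27.2 CPM in the others. Gorasp1 was at 46.9 CPM in HSC replicate 4 and at 36.7 to 38.0 CPM in the others. Tubgcp2 was at 73.2 CPM in HPC replicate 3 and at 101 to 104 CPM in the others. None of the 4 polo-like kinases was among them.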

How the results depend on the processing

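Across scalings, filters, tools and libraries left out, the log2 changes of Plk1, Plk2, Plk3 and Plk4 kept their sign and moved by less than 1 SD between replicates. By kind of read they moved further. Intron reads gave −1.08, 2.41, −0.61 and −1.09 for Plk1 to Plk4, exon-exon reads 7.11 and gene reads 4.73 for Plk2, and Gorasp1 turned to −0.65 with intron reads. Uniquely placed reads gave no value for Plk4. With intron reads 1393 genes were higher and 1274 lower. Intron reads also gave 0 higher centriole genes, 5 higher immediate early genes, 3 lower p53 and checkpoint genes and 1 lower pericentriolar gene. Exon-exon reads gave 6 higher immediate early genes, 4 lower p53 and checkpoint genes, and 1 higher and 2 lower partner genes. Upper quartile scaling gave 1 higher mitotic entry gene and 2 lower partner genes, and gene reads 2 lower immediate early genes. At an adjusted p under 0.01, 1 was higher and 5 lower for p53 and checkpoint genes, and 1 and 2 both for pericentriolar and for partner genes. Without both libraries numbered 4, 1 partner gene was higher. Leaving out 1 library gave 1 to 2 lower immediate early genes, 2 to 5 lower pericentriolar genes, and 1 to 3 higher and 2 to 5 lower partner genes. The cause was not tested.

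The replicate numbers were checked as a block. Same-numbered libraries had correlations of deviations of −0.01, −0.12, 0.09 and 0.15 for numbers 1 to 4 (across genes), and not every one was over 0.1, so the numbers were not taken to pair the samples. The replicate block gave 2588 higher and 2448 lower genes, 2 lower immediate early genes, and −0.81 for Plk4. HSC replicates 3 and 4 correlated best with their own number, and HSC replicates 1 and 2 with HPC replicate 3. The libraries numbered 4 also lay together on the second principal component, at −30.4 in HSC and −27.1 in HPC, against −10.7 to 24.7 for the others, which is a hint from the data and not the design.

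Depth limits Plk3 in both fractions and Plk2 in HPC, where a library held 14 to 36 exon reads of Plk2.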
